A study of Homo sapiens with 6 samples.

Results

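The 9 genes described here encode the MHC class I molecule and the machinery that loads it with peptide, and they were HLA-B, HLA-C, HLA-E, B2M, TAP1, TAP2, TAPBP, PSMB8 and PSMB9. They were picked by gene symbol from the 60605 genes of the deposited table, with earlier results of these data known, and all 9 passed the filter on low counts that left 14748 genes to test. Poly(A) RNA was sequenced from the triple-negative breast cancer line MDA-MB-231, in 3 shControl and 3 shPUS1 libraries. The shControl and shPUS1 cells carried a lentiviral vector and had been selected with puromycin, with a negative control hairpin in shControl cells and a hairpin against PUS1, which encodes a pseudouridine synthase of tRNA and mRNA, in shPUS1 cells. The deposited columns name the knockdown with a 2, and the sources used here do not say whether this number stands for any of the study's hairpins. The labels number the libraries of a group as biological replicates, and the sources do not say whether these came from separate selections, so that p-values measure only the spread between these libraries. The libraries held 15003203, 19625998 and 14241505 estimated counts in shControl replicates 1, 2 and 3 and 18233530, 18335152 and 17109464 in shPUS1 replicates 1, 2 and 3.

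MHC class I molecules show short peptides from inside the cell to CD8+ T cells and natural killer cells. Proteins are cut by the proteasome, in which PSMB8 and PSMB9 are catalytic subunits that replace the constitutive PSMB5 and PSMB6 after interferon exposure. The peptides cross into the endoplasmic reticulum through the transporter of TAP1 and TAP2, and tapasin, the product of TAPBP, holds the empty class I molecule beside that transporter. The heavy chains HLA-B, HLA-C and HLA-E pair with the light chain beta-2 microglobulin, the product of B2M, and HLA-E mainly shows leader peptides of other class I chains to receptors of natural killer cells. In tumour cells these genes are often reduced, and interferon raises them together through factors such as IRF1 and NLRC5.

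In GRCh38 coordinates, as the deposited table gives them, 8 of the genes lie in the MHC region of chromosome 6. From HLA-E (chr6:30489509-30494194, plus strand) to TAPBP (chr6:33299694-33314387, minus strand) this region spans 2824879 bases. HLA-C (chr6:31268749-31272130) and HLA-B (chr6:31353872-31357188) lie on the minus strand. TAP2 (chr6:32821833-32838770, minus), PSMB8 (chr6:32840717-32844679, minus), TAP1 (chr6:32845209-32853816, minus) and PSMB9 (chr6:32844136-32859851, plus) form a cluster of 38019 bases. B2M lies apart on the plus strand of chromosome 15 (chr15:44711487-44718851).

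The stretches through which interferon and NF-kappa B factors are known to reach class I promoters are shown to set the genes' shared letters beside their values. RefSeq start sites (GRCh38.p14) gave 10 windows of the 250 bases before a start for 8 of the 9 genes, and HLA-E had no entry. In each line, written 5′ to 3′ on the gene's strand, capitals mark matches on either strand to the IRF core AANNGAAA, to its longer form in the interferon-stimulated response element GAAANNGAAA, and to the kappa B motif GGGNNNNNCC. The longer form can overlap the IRF core. The stretches hold 60 bases, or 30 where an annotated exon of the gene reaches into them.
HLA-B (chr6:31357301-31357360): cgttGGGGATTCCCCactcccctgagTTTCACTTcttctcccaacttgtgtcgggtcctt
HLA-C (chr6:31272210-31272269): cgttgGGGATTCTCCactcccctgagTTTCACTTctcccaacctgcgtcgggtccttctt
B2M (chr15:44711352-44711411): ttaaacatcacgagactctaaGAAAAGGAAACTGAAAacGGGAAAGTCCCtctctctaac
TAP1 (chr6:32853817-32853846): gcggccgcTTTCGATTTCGCTTTCccctaa
TAP2 (chr6:32838780-32838809): ggctggggAAGCGAAAGCGAAAgctgcccg
TAPBP (chr6:33314079-33314108): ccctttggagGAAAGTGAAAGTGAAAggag
The IRF core was found in 6 of these 10 windows and in 20.3% of 35116 windows of the same length before all RefSeq starts. The interferon-stimulated response element was found in 4 of the 10, those of TAP1, TAP2, TAPBP and B2M, and in 3.02% of all windows. The kappa B motif was found in 7 of the 10 and in 54.4% of all windows. The windows of PSMB8 and PSMB9 held neither the IRF core nor the kappa B letters. The stretch shown for TAP1 also lies upstream of the PSMB9 start, beyond the 250 bases searched for PSMB9 (chr6:32853942-32854191). Absence from a window is therefore not absence from the gene's surroundings. A match is a description of the letters and not of a bound site.

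The knockdown was checked first. PUS1 (ENSG00000177192) stood at 14.5, 27.5 and 12.1 CPM (read counts scaled to a common library size) in shControl replicates 1, 2 and 3 and at 6.57, 5.47 and 5.37 in the shPUS1 libraries. The groups did not overlap, with all shPUS1 values the lower ones, and the highest value was that of shControl replicate 2. PUS1 fell by 1.64 on the log2 scale in shPUS1 cells (SE 0.322, 95% interval -2.38 to -0.89, edgeR adjusted p = 0.0462), and without shControl replicate 2 it fell by 1.202 (adjusted p = 0.00311). The adjusted p lay between 0.00011 and 0.253 over the alternatives.

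shControl replicate 2 stood apart from the other libraries. Its log2 CPM correlated with shControl replicates 1 and 3 at r = 0.9505 and 0.9521 across genes, while those replicates correlated with each other at 0.981 and the shPUS1 pairs at 0.9872 to 0.9906. Genes are not independent replicates, and these values describe the libraries only. Log2 fold changes of named genes of the pathway are therefore given with and without this library.

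All 6 markers of MDA-MB-231 cells were present at a mean of at least 1 FPKM (reads scaled by exonic length and library total). Their summed FPKM was 653.5, 809.6 and 635.5 in the shControl libraries and 521.6, 503.6 and 541.8 in the shPUS1 libraries, without overlap. The most abundant, vimentin (VIM), a filament of mesenchymal cells, had a log2 fold change of -0.50 (SE 0.140, edgeR adjusted p = 0.0873, and -0.40 with 0.0305 without shControl replicate 2). VIM and the adhesion receptor CD44 were lower and the transcription factor ZEB1 higher in every shPUS1 library. EGFR, SPARC and CAV1 overlapped between groups, with log2 fold changes of 0.33, 0.48 and -0.42. Without shControl replicate 2 these were 0.25, 0.07 and -0.003. Of 6 luminal breast markers, 4 had a mean under 1 FPKM, and the most abundant, KRT18 at 69.6 FPKM, overlapped between groups. CDH1, ESR1 and PGR, at 0 to 0.18 FPKM in each library, were higher in every shPUS1 library by CPM. Of 8 leukocyte markers, 4 were at 0 in all libraries and 7 had a mean under 1 FPKM, the most abundant being CD14 at 2.28 FPKM, which overlapped between groups. The summed FPKM of 5 fibroblast markers was 7.01, 2.13 and 8.33 in shControl libraries and 12.2, 13.8 and 11.97 in shPUS1 libraries. Its most abundant gene was PDGFRB at 5.69 FPKM, and 3 of the 5 markers were under 1 FPKM. LUM, a proteoglycan gene, rose 7.07-fold in shPUS1 cells (28 counts in shControl and 224 in shPUS1 libraries, edgeR adjusted p = 0.0462), but was called in only 6 of 13 alternatives. With a library left out its log2 fold change lay between 2.32, without shControl replicate 2, and 3.62, and its adjusted p reached 0.245. COL1A1, a collagen chain, stood at 2.15-fold (adjusted p = 0.110, and 1.70-fold with 0.0123 without shControl replicate 2) and PDGFRB, a growth factor receptor, at 2.0-fold (adjusted p = 0.195, and 1.501-fold with 0.0163 without that library), both higher in every shPUS1 library. COL3A1 overlapped between groups, and DCN, another proteoglycan gene, had 0 to 7 counts in each library. The part of these marker genes in the results below was not tested. In a bulk culture, a change in the share of cells that express a gene and a change in RNA per cell cannot be told apart.

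The levels per exonic length spread widely between the genes. In shPUS1 cells HLA-E was the highest at 143.7 ± 2.74 FPKM (SD, n = 3), followed by B2M at 115.0 ± 11.96. TAPBP at 53.4 ± 0.804 and HLA-B at 52.8 ± 1.35 came next, and their ranges overlapped. TAP1 at 15.8 ± 0.681, PSMB8 at 14.7 ± 1.23 and TAP2 at 14.2 ± 0.815 overlapped with their neighbours in this order. HLA-C stood at 9.83 ± 1.53 and PSMB9 was the lowest at 2.84 ± 0.176. In shControl cells the order kept HLA-E and B2M first, at 139.1 ± 38.7 and 119.6 ± 12.1 FPKM with overlapping ranges, and HLA-C and PSMB9 last, at 7.05 ± 0.840 and 3.58 ± 0.461. The order of HLA-B and TAPBP in shControl cells was the other way round, at 42.4 ± 11.5 and 37.1 ± 5.88 FPKM, but here too their ranges overlapped. The plot of levels by library shows these values. The order depends on the exonic length used, which was 2922 bases for HLA-E and 5455 for B2M. By CPM B2M stood above HLA-E in every library, with means of 633.4 and 423.9 in shPUS1 and 648.4 and 401.5 in shControl cells. How well the HLA alleles of these cells match the reference was not tested, so that levels compared between HLA genes are uncertain.

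**Figure D1:**
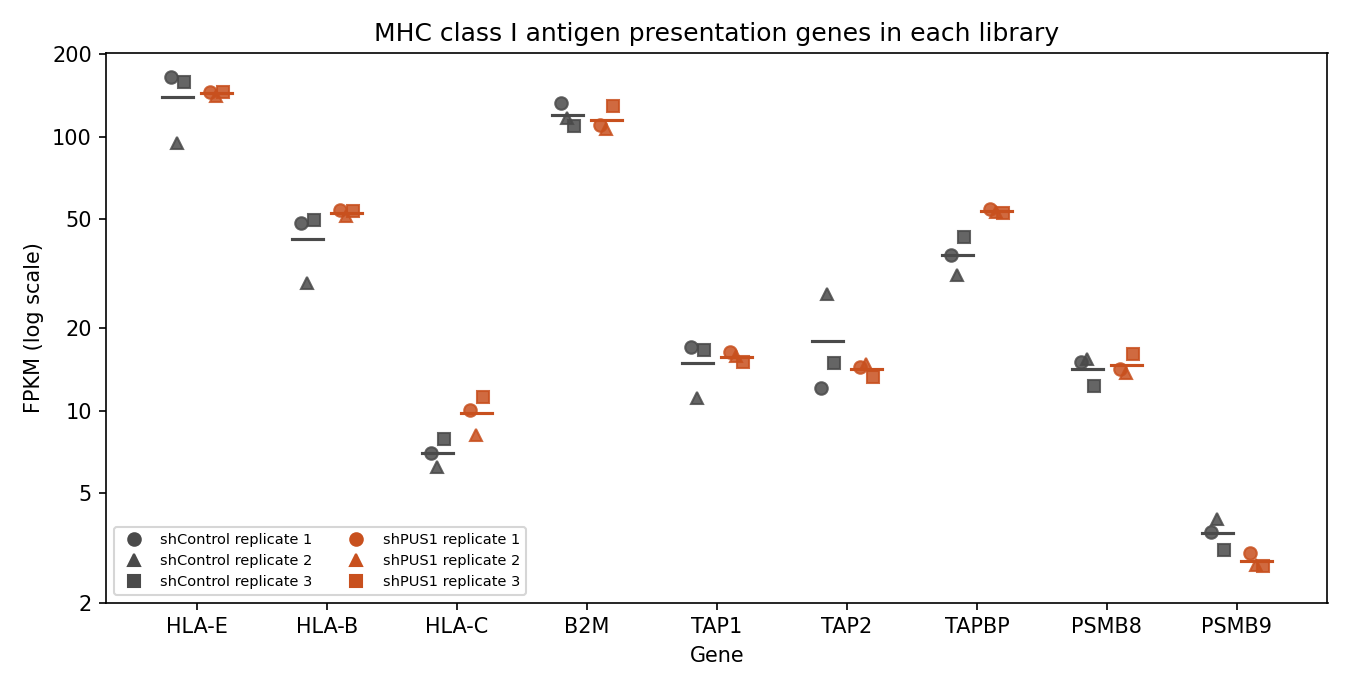
FPKM (log axis) of the 9 genes in each of 3 shControl (grey) and 3 shPUS1 (orange) libraries of MDA-MB-231 cells, with marker shape for the replicate number and a line at the group mean. All 3 shPUS1 libraries lie above all 3 shControl libraries for HLA-B, HLA-C and TAPBP, and shControl replicate 2 (triangle) is the lowest library for HLA-E, HLA-B, HLA-C, TAP1 and TAPBP and the highest for TAP2 and PSMB9.

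Across all 6 libraries, none of the 9 genes passed the test, by edgeR's quasi-likelihood test with Benjamini-Hochberg adjustment over all 14748 genes. Among all genes, 256 (1.74%) rose and 124 (0.841%) fell at an adjusted p under 0.05, and 202 (1.37%) also changed at least 2-fold in either direction. With library totals alone in place of TMM scaling, 164 genes rose and 132 fell. The size of the excess of rises thus depends on the scaling. At an unadjusted p under 0.05, 2 of the 9 genes were found, TAPBP and HLA-C, beside 3758 of all genes, and DESeq2 called 1 of the 9, TAPBP, as higher beside 969 (6.96%) of the 13913 genes to which it gave an adjusted p. The groups did not overlap for TAPBP, HLA-B and HLA-C, each higher in every shPUS1 library, which compares with 18.8% of all genes higher in this way. For 0 of the 9 were all shPUS1 libraries below all shControl libraries, compared with 17.3% of all genes. The median log2 fold change was 0.08 over the 9 genes and -0.03 over all genes tested. Without shControl replicate 2 these medians were 0.11 and -0.02. With 3 libraries against 3, an exact two-sided permutation test of a single gene cannot give a p below 0.1.

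Of the heavy chains, HLA-C and HLA-B were higher in every shPUS1 library, and HLA-E was not. HLA-C, a classical heavy chain and the main ligand of inhibitory KIR receptors on natural killer cells, stood at 17.3, 16.0 and 19.2 CPM in the shControl libraries and 25.7, 20.6 and 28.4 CPM in the shPUS1 libraries. The lowest shPUS1 value was thus close to the highest shControl value. Its mean was 1.42-fold that of shControl cells (log2 fold change 0.51, SE 0.171, 95% interval 0.11 to 0.90), and edgeR's adjusted p was 0.124. It was 0.44 with an adjusted p of 0.0769 without shControl replicate 2.

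HLA-B, the classical heavy chain with the greatest allelic variety, stood at 143.7, 90.4 and 144.5 CPM in the shControl libraries and 164.3, 154.9 and 162.1 CPM in the shPUS1 libraries. The shPUS1 values lay close together, and shControl replicate 2 was far below the other 2 shControl libraries. The log2 fold change was 0.35 (SE 0.187, 95% interval -0.09 to 0.78, edgeR adjusted p = 0.280). Without shControl replicate 2 it was 0.15 with an adjusted p of 0.261.

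HLA-E stood at 471.2, 283.9 and 449.3 CPM in the shControl libraries and 432.0, 412.3 and 427.6 CPM in the shPUS1 libraries. The shPUS1 values fell between the low shControl replicate 2 and the other 2 shControl libraries. The log2 fold change was 0.08 (SE 0.191, 95% interval -0.36 to 0.52, edgeR adjusted p = 0.817) and turned to -0.13 (adjusted p = 0.326) without shControl replicate 2. When the counts of the 6 class I HLA genes of the table were summed to 1 feature, the log2 fold change was 0.14 (SE 0.156, 95% interval -0.22 to 0.51, edgeR adjusted p = 0.581).

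Within a library, HLA-B stood higher relative to HLA-E in all 3 shPUS1 libraries. The ratio of their FPKM was 0.369, 0.364 and 0.368 in the shPUS1 libraries and 0.296, 0.309 and 0.312 in the shControl libraries, shControl replicate 2 being the middle one. The gap between the groups was wider than the range within either, although the exact two-sided permutation p was 0.1, the smallest possible, and 0.333 after adjustment over 10 ratios. All of these ratios were chosen after the values of their genes had been seen. The ratio of HLA-C to HLA-B, 0.186 ± 0.0254 in shPUS1 and 0.172 ± 0.0360 in shControl cells (SD, n = 3), overlapped between groups.

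B2M, the light chain, overlapped between the groups. It stood at 711.2, 656.6 and 577.3 CPM in the shControl libraries and 607.7, 583.3 and 709.1 CPM in the shPUS1 libraries. The groups covered nearly the same range. The log2 fold change was -0.03 (SE 0.133, 95% interval -0.34 to 0.27, edgeR adjusted p = 0.890), and without shControl replicate 2 it was again -0.03 (adjusted p = 0.882).

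**Figure D2:**
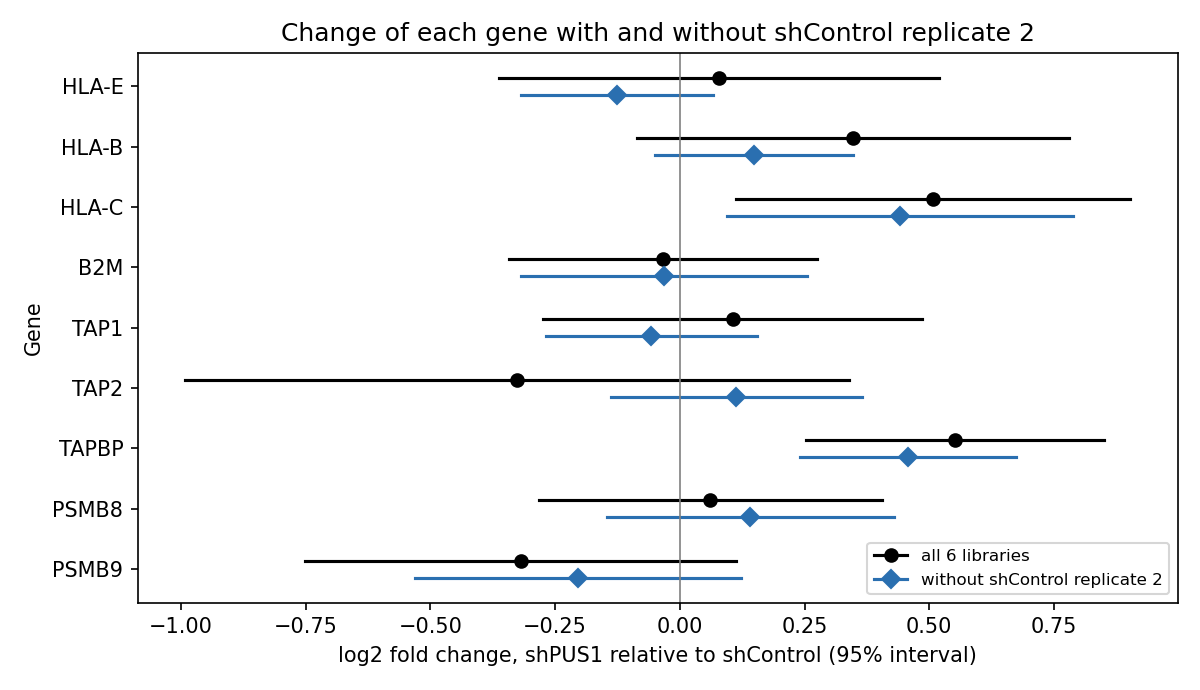
Log2 fold change in shPUS1 relative to shControl cells for each of the 9 genes (edgeR, points) with 95% intervals (lines), from all 6 libraries (black) and without shControl replicate 2 (blue). TAPBP (0.55 and 0.46) and HLA-C (0.51 and 0.44) lie above 0 with their whole interval in both fits, and HLA-E, TAP1 and TAP2 change sides of 0.

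Of the peptide-loading genes, tapasin stood out with the smallest p of the 9 genes. TAPBP stood at 184.1, 162.5 and 210.9 CPM in the shControl libraries and 278.5, 268.8 and 269.7 CPM in the shPUS1 libraries. The shPUS1 libraries lay within 10 CPM of each other, all above the highest shControl library. The log2 fold change was 0.55 (SE 0.129, 95% interval 0.25 to 0.85), a 1.47-fold higher level, with an unadjusted p of 0.0028 and an edgeR adjusted p of 0.0614. It passed the test in 4 of 16 alternatives. DESeq2 gave 0.56 (adjusted p = 0.00688), the fit without a filter on low counts 0.56 (adjusted p = 0.0394, beside 2.8% of genes called higher), the fit without shControl replicate 2 0.46 (adjusted p = 0.0144, beside 9.8% of genes) and the fit without shControl replicate 3 0.64 (adjusted p = 0.0495, beside 2.09% of genes). The adjusted p lay between 0.00688 and 0.277 over all alternatives, and the log2 fold change between 0.46 and 0.64.

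Both chains of the peptide transporter overlapped between the groups. TAP1 stood at 78.2, 53.1 and 74.8 CPM in the shControl libraries and 77.1, 74.1 and 70.5 CPM in the shPUS1 libraries. Its log2 fold change was 0.11 (SE 0.164, 95% interval -0.27 to 0.49, edgeR adjusted p = 0.710), and -0.06 (adjusted p = 0.697) without shControl replicate 2, which held the lowest value. TAP2 stood at 76.1, 175.4 and 92.3 CPM in the shControl libraries and 93.8, 95.1 and 85.6 CPM in the shPUS1 libraries. Here shControl replicate 2 was the highest of all libraries, while it was the lowest for TAP1. The log2 fold change of TAP2 was -0.33 (SE 0.287, 95% interval -0.99 to 0.34, edgeR adjusted p = 0.496) and 0.11 (adjusted p = 0.503) without that library. The whole of TAP2 lies within an unnamed gene on the same strand (ENSG00000250264, mean 46.5 counts) whose transcripts hold 30.3% of the 100-base stretches of TAP2 transcripts, so that the counts of TAP2 are uncertain.

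The ratio of tapasin to TAP1 and to B2M was higher in every shPUS1 library. Its ratio to the heavy chains HLA-B and HLA-C overlapped between groups. The ratio of TAPBP to TAP1 in FPKM was 3.32, 3.33 and 3.51 in the shPUS1 libraries and 2.16, 2.81 and 2.59 in the shControl libraries. The ratio of TAPBP to B2M was 0.467 ± 0.0494 in shPUS1 cells and 0.313 ± 0.0701 in shControl cells (SD, n = 3), again without overlap between groups. For both ratios the exact two-sided permutation p was 0.1, the smallest possible, and the adjusted value 0.333. No ratio could therefore pass this test, and it decides nothing here. The ratio of TAPBP to HLA-B was 1.01 ± 0.0216 in shPUS1 and 0.901 ± 0.156 in shControl cells (exact p = 0.4, adjusted 0.8), and that to HLA-C was 5.52 ± 0.893 and 5.25 ± 0.212 (exact p = 0.8, adjusted 0.8). The ratio of TAP1 to TAP2 overlapped, at 1.11 ± 0.0343 and 0.980 ± 0.511. The interferon-stimulated response element shown above was in the windows of TAPBP, B2M, TAP1 and TAP2. Their log2 fold changes were 0.55, -0.03, 0.11 and -0.33, and 0.46, -0.03, -0.06 and 0.11 without shControl replicate 2. The windows of HLA-B and HLA-C, with 0.35 and 0.51, held the IRF core without this longer form. Without that library HLA-B and HLA-C had 0.15 and 0.44. The part of these letters in the changes was not tested.

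The immunoproteasome subunits did not pass the test. PSMB8 stood at 51.3, 55.1 and 41.6 CPM in the shControl libraries and 50.02, 48.0 and 56.5 CPM in the shPUS1 libraries, with a log2 fold change of 0.06 (SE 0.149, 95% interval -0.28 to 0.40, edgeR adjusted p = 0.818) and 0.14 (adjusted p = 0.462) without shControl replicate 2. PSMB9 stood at 11.8, 13.8 and 10.1 CPM in the shControl libraries and 10.3, 9.19 and 9.21 CPM in the shPUS1 libraries. Its lowest shControl value lay just below its highest shPUS1 value, so that the groups overlapped by 1 library on each side. The log2 fold change of PSMB9 was -0.32 (SE 0.186, 95% interval -0.75 to 0.11, edgeR adjusted p = 0.314) and -0.20 (adjusted p = 0.344) without shControl replicate 2. The annotated span of PSMB9 covers all 8608 bases of TAP1 and 544 bases of PSMB8 on the opposite strand, and since the strandedness of the counting was not stated, reads of these genes may not have been told apart.

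The constitutive subunits gave the reference for these values. PSMB5, which PSMB8 replaces, had a log2 fold change of -0.11 (SE 0.134, edgeR adjusted p = 0.623, and -0.01 without shControl replicate 2), and PSMB7, which PSMB10 replaces, had -0.13 (SE 0.169, adjusted p = 0.645), which turned to 0.05 without that library. PSMB6, which PSMB9 replaces, had -0.40 (SE 0.173, adjusted p = 0.192, and -0.20 with an adjusted p of 0.166 without that library), with 68.3, 89.9 and 61.2 FPKM in shControl and 55.4, 54.8 and 53.8 FPKM in shPUS1 libraries. PSMB6 was thus lower in every shPUS1 library. PSMB10 had -0.68 (SE 0.545, adjusted p = 0.453), which turned to 0.30 (adjusted p = 0.427) without shControl replicate 2. The FPKM ratio of PSMB8 to PSMB5 was 0.221 ± 0.0271 in shPUS1 and 0.196 ± 0.00706 in shControl cells (SD, n = 3; exact two-sided permutation p = 0.2, adjusted 0.5). The ratio of PSMB9 to PSMB6 was 0.0519 ± 0.00262 and 0.0495 ± 0.00415 (exact p = 0.6, adjusted 0.8). The ratio of PSMB10 to PSMB7 was 0.0367 ± 0.00824 and 0.0490 ± 0.0314 (exact p = 0.8, adjusted 0.8), and shControl replicate 2, at 0.0852, accounted for the wide shControl spread. In every library the immunoproteasome subunits were thus the minor form at the RNA level.

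**Figure D3:**
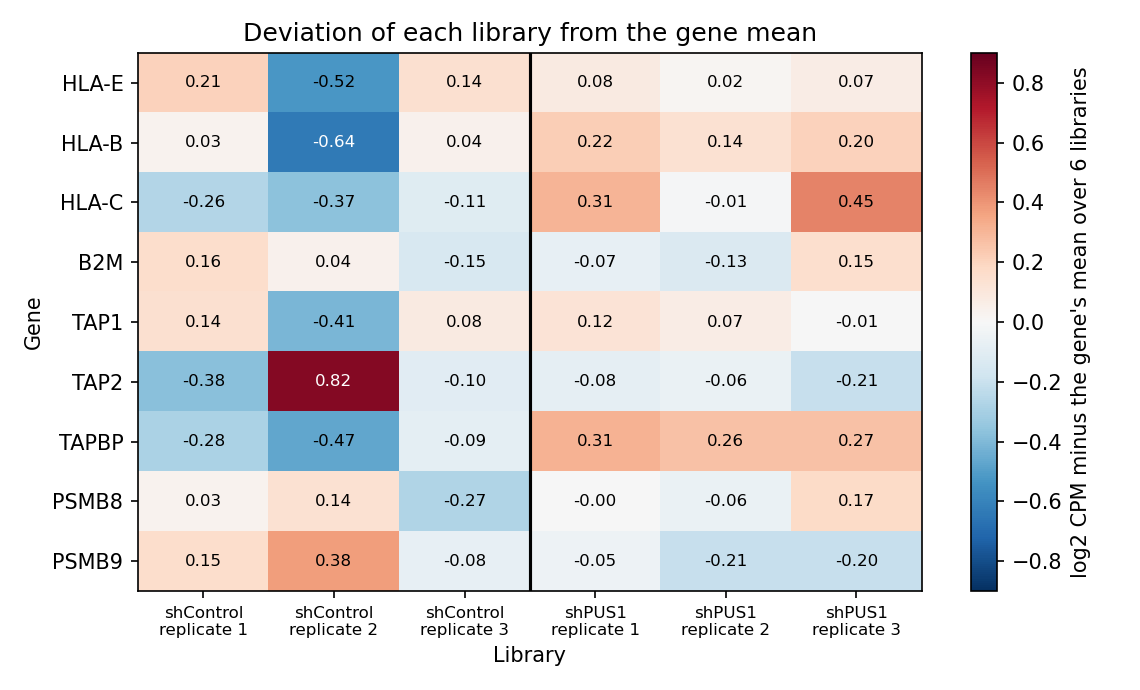
Log2 CPM of each gene in each library minus the gene's mean over the 6 libraries, with shControl libraries left and shPUS1 libraries right of the line. shControl replicate 2 is low for HLA-B (-0.64), HLA-E (-0.52) and TAPBP (-0.47) and high for TAP2 (0.82) and PSMB9 (0.38), and TAPBP is positive in every shPUS1 library.

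The genes did not vary as a block. In shControl replicate 2 the log2 CPM deviated from the gene's mean by -0.64 for HLA-B, -0.52 for HLA-E, -0.47 for TAPBP, -0.41 for TAP1 and -0.37 for HLA-C, but by 0.82 for TAP2, 0.38 for PSMB9, 0.14 for PSMB8 and 0.04 for B2M. The median profile of the 9 genes was 0.03, -0.37 and -0.09 in the shControl libraries and 0.08, -0.01 and 0.15 in the shPUS1 libraries. Among 9400 protein-coding genes with a mean of at least 10 CPM outside the 9 genes and the lists below, the smallest root mean square differences from this profile over the 6 libraries were those of NUDT4 (0.0439), which encodes a Nudix hydrolase of inositol pyrophosphates, BIN1 (0.0477), a membrane-bending protein, CSNK1G3 (0.0489), a casein kinase, CIAO2B (0.0491), of cytosolic iron-sulfur assembly, and CCRL2 (0.0502), an atypical chemokine receptor. Their log2 fold changes lay between 0.15 for CIAO2B and 0.28 for CCRL2, and their edgeR adjusted p between 0.273 and 0.550.

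The other genes of the pathway were taken from 6 lists written by role. They held 83 genes, of which 72 were tested, and 1 fell (beside 0.841% of all genes) and 0 rose (beside 1.74%) by edgeR, with 22 (30.6%, beside 25.5% of all genes) at an unadjusted p under 0.05. The median log2 fold change was -0.13, with 24 genes above and 48 below 0. Without shControl replicate 2, 5 of these genes rose (beside 9.8% of all genes) and 10 fell (beside 8.79%), and the median was -0.05. DESeq2 called 4 as higher (beside 6.96% of all genes), HSPA5, MICA, CREB1 and JAK1, and 5 as lower (beside 5.31%), HFE, LAP3, CIITA, HLA-DRA and HLA-DPA1.

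Class I relatives, which include the nonclassical chains and the stress ligands of the receptor NKG2D, had 10 tested genes, 7 above and 3 below 0, and a median of 0.29 that dropped to 0.11 without shControl replicate 2. MICA, an NKG2D ligand, stood at 12.8, 7.98 and 10.9 FPKM in shControl and 14.5, 15.6 and 16.6 FPKM in shPUS1 libraries (log2 fold change 0.59, SE 0.173, edgeR adjusted p = 0.0967, and 0.43 with an adjusted p of 0.0345 without shControl replicate 2). HFE, a regulator of iron uptake that pairs with B2M, stood at 1.98, 2.67 and 2.30 FPKM in shControl and 1.31, 1.47 and 1.32 FPKM in shPUS1 libraries (log2 fold change -0.74, SE 0.193, adjusted p = 0.0750, and -0.60 with an adjusted p of 0.0214 without that library). The groups did not overlap for either gene, in opposite directions.

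Of 11 genes for loading and folding in the endoplasmic reticulum, 5 lay above and 6 below 0, with a median of -0.12, and -0.14 without shControl replicate 2. HSPA5, the chaperone BiP, stood at 320.8, 172.9 and 258.2 FPKM in shControl and 416.1, 392.7 and 484.4 FPKM in shPUS1 libraries (log2 fold change 0.81, SE 0.208, edgeR adjusted p = 0.0729, and 0.61 with an adjusted p of 0.0158 without shControl replicate 2). GANAB, a glucosidase subunit that trims the sugars of new glycoproteins, had -0.33 (SE 0.109, adjusted p = 0.122, and -0.30 with an adjusted p of 0.0456 without that library). Tapasin and HSPA5 were both higher in every shPUS1 library, while GANAB was lower in every one.

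Peptide supply in the cytosol had 14 tested genes, 2 above and 12 below 0, with a median of -0.16 that turned to 0.02 without shControl replicate 2. LAP3, an aminopeptidase, stood at 18.9, 32.6 and 16.8 FPKM in shControl and 12, 11.3 and 11.8 FPKM in shPUS1 libraries (log2 fold change -0.95, SE 0.261, edgeR adjusted p = 0.0850, and -0.57 with an adjusted p of 0.0085 without shControl replicate 2). THOP1, a peptidase that degrades short peptides, had -0.57 (SE 0.213, adjusted p = 0.151, and -0.28 with an adjusted p of 0.0668 without that library).

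Of 17 genes for the transcription of class I genes, 4 lay above and 13 below 0, with a median of -0.10 that came to -0.05 without shControl replicate 2. NLRC5, the class I transactivator, stood at 1.12, 1.75 and 1.72 FPKM in shControl and 1.56, 1.60 and 1.22 FPKM in shPUS1 libraries (log2 fold change -0.05, SE 0.220, edgeR adjusted p = 0.904, and 0.08 without shControl replicate 2). CIITA, the class II transactivator, was low throughout, at 0.13, 0.53 and 0.23 FPKM in shControl and 0.06, 0.06 and 0.05 FPKM in shPUS1 libraries (log2 fold change -2.40, SE 0.524, adjusted p = 0.0555, and -1.65 with an adjusted p of 0.0107 without shControl replicate 2). CREB1, a factor of class I and class II promoters, had 0.44 (SE 0.121, adjusted p = 0.0841, and 0.38 with an adjusted p of 0.0308 without that library). IRF1, an interferon-induced activator of class I genes, stood at 1.64, 2.22 and 1.66 FPKM in shControl and 1.09, 1.25 and 1.22 FPKM in shPUS1 libraries (log2 fold change -0.61, SE 0.187, adjusted p = 0.102, and -0.43 with an adjusted p of 0.0331 without that library). IRF1 was thus lower and CREB1 higher in every shPUS1 library.

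The interferon signalling list had 13 tested genes of 18, 5 above and 8 below 0, and a median of -0.11, or -0.08 without shControl replicate 2. Of the 5 interferon genes listed, IFNG, IFNB1, IFNA1 and IFNL1 had 0 counts in all 6 libraries, and IFNK had 2 counts in shPUS1 replicate 3 alone. JAK1, a kinase of interferon receptors, had 0.41 (SE 0.124, edgeR adjusted p = 0.103, and 0.33 with an adjusted p of 0.0453 without shControl replicate 2). PTPN2, a phosphatase that dampens JAK kinases, had -0.43 (SE 0.132, adjusted p = 0.106, and -0.42 with an adjusted p of 0.0470 without that library). JAK1 was higher and PTPN2 lower in every shPUS1 library.

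Class II presentation held the called gene of the 6 lists. HLA-DRA, the nearly constant alpha chain of the HLA-DR dimer, stood at 6, 7.74 and 5.53 FPKM in shControl and 2.12, 2.98 and 2.11 FPKM in shPUS1 libraries. The groups were far apart. HLA-DRA fell by 1.4 on the log2 scale (SE 0.260, 95% interval -2.01 to -0.80, edgeR adjusted p = 0.0420), and by 1.22 without shControl replicate 2 (adjusted p = 0.00827). It was called in 11 of 16 alternatives. With a library left out, the call was lost without shControl replicate 1 (adjusted p = 0.0905) and without shPUS1 replicates 1, 2 and 3 (adjusted p = 0.231, 0.222 and 0.189). HLA-DPA1, a chain of HLA-DP, had -0.90 (SE 0.213, adjusted p = 0.0623, and -0.80 with an adjusted p of 0.0208 without shControl replicate 2). Of 7 tested genes of this list 1 lay above and 6 below 0, with a median of -0.62, or -0.57 without shControl replicate 2, and 3 genes were lower in every shPUS1 library, compared with 17.3% of all genes.

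**Figure D4:**
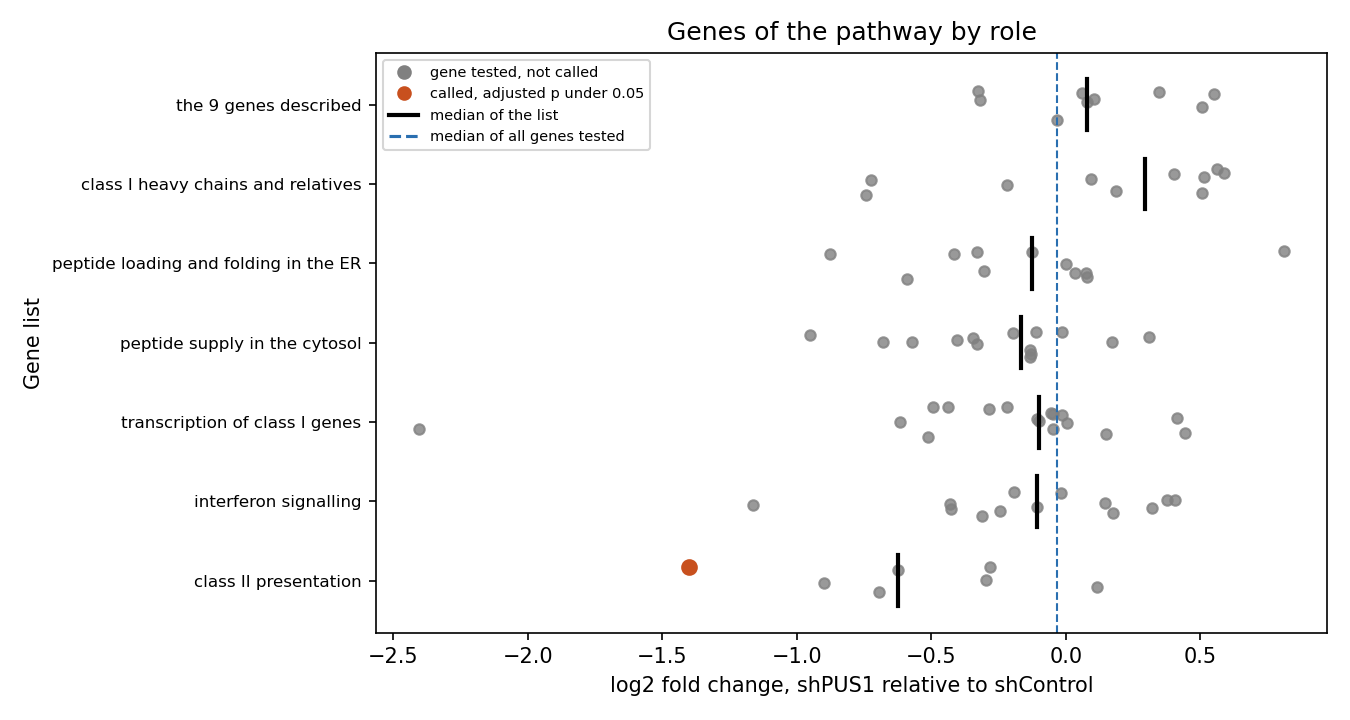
Log2 fold change in shPUS1 relative to shControl cells (edgeR, 6 libraries) for each tested gene of the 9 described and of the 6 lists, with the list median (black bar) and the median of all genes tested (dashed line, -0.03). HLA-DRA (-1.4, orange) is the called gene, and the class II list has a median of -0.62.

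The neighbours of TAPBP were examined after its values had been seen. Of 14 tested protein-coding genes within 100 kb of it, 5 lay above and 9 below 0, with a median log2 fold change of -0.11, and edgeR called 0. Without shControl replicate 2 it called 4 of them, PHF1 (0.32, adjusted p = 0.0472) as higher, beside 9.8% of all genes, and RXRB (-0.40, adjusted p = 0.0245), KIFC1 (-0.31, adjusted p = 0.0467) and RPS18 as lower, beside 8.79%. With all libraries PHF1, a chromatin protein gene, had 0.63 (SE 0.293, adjusted p = 0.224) and was higher in every shPUS1 library. DAXX, the neighbour that encodes a histone chaperone, had 0.45 (SE 0.137, adjusted p = 0.105, and 0.34 without shControl replicate 2) and was higher in every shPUS1 library. RPS18, a ribosomal protein gene, had -0.65 (SE 0.133, adjusted p = 0.0506, and -0.66 with an adjusted p of 0.00967 without that library) and was lower in every one. VPS52, HSD17B8 and KIFC1 were also lower in every shPUS1 library, at -0.83, -0.77 and -0.42 (adjusted p = 0.157, 0.166 and 0.111). Without shControl replicate 2, VPS52 had -0.37 (adjusted p = 0.109) and HSD17B8 -0.82 (adjusted p = 0.0920). Beside the gene that holds TAP2, 2 tested protein-coding genes lay within 100 kb of the TAP2 to PSMB9 cluster, HLA-DMA and HLA-DMB, which load class II molecules. Their log2 fold changes were -0.28 (adjusted p = 0.431) and 0.11 (adjusted p = 0.868), and -0.37 and 0.22 without shControl replicate 2 (adjusted p = 0.190 and 0.731). edgeR called 0 of them in either fit.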

How the data were processed

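RNA-seq of 3 shControl and 3 shPUS1 libraries was analysed. The authors aligned reads with HISAT2 and counted them with HTSeq 0.6.1. The deposited table holds estimated counts per gene, not normalized and with 19.1% to 20.4% of values above 0 more than 0.01 from a whole number, and FPKM, which the authors computed from these counts, the exonic length and the library total. How counting with HTSeq gave values that are not whole is not stated. Genome build, strandedness and handling of reads with several matches are not given in the sources used here, and coordinates matched GRCh38. No per-sample column was left out.

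Counts were rounded, filtered with filterByExpr, scaled by TMM (factors 0.973 to 1.032) and entered into edgeR 4.0.16 (R 4.3.3) for its quasi-likelihood test, with Benjamini-Hochberg adjustment over all genes tested. A gene was called at an adjusted p under 0.05. CPM used the TMM-scaled library sizes, and log2 CPM a prior count of 2. DESeq2 1.42.0 and limma 3.58.1 served as alternatives, beside other scalings and filters, protein-coding genes only and each library left out. Summaries were made in Python 3.11.15 (pandas 2.3.3, scipy 1.17.1, numpy 2.4.6) and plots with matplotlib 3.10.9.

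The 9 genes and the 6 lists were chosen with earlier results of these data known. Named were the 9 genes, PUS1, in each list the called genes or, with fewer than 2, the 2 with the smallest p, PSMB5, PSMB6, PSMB7, NLRC5, IRF1, the interferon genes and the 5 genes with the most similar profile; 1 further gene of this rule is not reported here. PSMB10, the neighbours DAXX, RPS18, PHF1, RXRB, KIFC1, VPS52, HSD17B8, HLA-DMA and HLA-DMB, the cell type markers named and the ratios were added later.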

Additional observations from a re-analysis of the deposited data

How the results depend on the processing

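The 380 genes called in all became 1708 with DESeq2, 1284 without a filter on low counts and 250 with limma on log2(FPKM + 0.1). The 202 called with at least a 2-fold change became 499 with DESeq2, 536 without a filter, 87 with limma on log2(FPKM + 1) and 112 with log2(FPKM + 0.1). Leaving out 1 library gave 0 to 2813 genes called, 0 to 497 of them at least 2-fold, the most without shControl replicate 2 and 0 by edgeR without shPUS1 replicate 3, where 2581 had an unadjusted p under 0.05. Without shControl replicate 1 it was 11, without shPUS1 replicate 1 also 11, and without shPUS1 replicate 2 it was 6. Of the 9 genes, 1 (TAPBP) was called with DESeq2, 1 without a filter and 0 to 1 with a library left out. PUS1 kept its direction, at -1.001 (adjusted p = 0.0544) and -1.48 (adjusted p = 0.0514) with limma at pseudocounts of 1 and 0.1, and between -1.86 and -1.20 with a library left out. Its adjusted p was 0.0905 without shControl replicate 1 and 0.208, 0.253 and 0.192 without shPUS1 replicates 1, 2 and 3.

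No pairing by replicate number was found (residual correlations -0.053, -0.026 and -0.19). With a replicate block, 18 genes were called, all 18 at least 2-fold, 0 of the 9 genes among them by edgeR, and PUS1 stood at -1.55 (adjusted p = 0.0969). The call of HLA-DRA was lost there too (adjusted p = 0.0969).

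Of 135 values of the 9 genes under the alternatives, 124 kept their sign and their side of the threshold, 4 passed it (TAPBP) and 7 changed sign, and the cause was not tested. With a library left out, log2 fold changes ran from -0.13 to 0.21 for HLA-E, -0.057 to 0.21 for TAP1 and -0.55 to 0.11 for TAP2, the sign turning without shControl replicate 2. They ran from -0.12 to 0.036 for B2M, turning without shControl replicate 1 (0.036) and shPUS1 replicate 2 (0.024), and from -0.056 to 0.14 for PSMB8, turning without shControl replicate 3 (-0.056) and shPUS1 replicate 3 (-0.010). The median log2 fold change of all genes stayed between -0.06 and -0.01. Some of the fold changes of named genes rested on few counts in a library, with 18.9 to 216.4 for CIITA, 21 to 51.0 for HLA-DMB and 3 to 85 for LUM.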
